A study of Mus musculus with 4 samples.

Results

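The genes described here make, trim, carry and display the peptides that MHC class I molecules show at the cell surface, and they were chosen by name as 10 symbols of the raw count table: Psmb8, Psmb9, Psmb10, Psme1, Psme2, Tap1, Tap2, Tapbp, B2m and H2-K1. All 10 were among the 23377 genes of the table and all 10 were among the 12001 genes tested. RNA-seq of polyadenylated RNA was done on mouse cells labelled as CAFs (cancer-associated fibroblasts), which are stromal cells of a tumour. Libraries labelled as CAFs of resistant tumours (2 libraries, sample name RES4) were set against libraries labelled as CAFs of normal tumours (2 libraries, sample name WTA), in a series that asks how lactate from cancer cells bears on adaptive resistance to therapies aimed at MET and EGFR, 2 receptors of growth signals. The labels give no treatment, strain, sex, age or sort for either group, and replicates share 1 name, so a group may stem from a single tumour or culture, and its own traits and those of the group cannot be told apart. The p-values set the difference between groups against a spread between replicates within groups. With 2 replicates per group, the fit estimates that spread largely with information shared across all genes tested, and part of it may be technical.

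As background, the proteasome is a barrel of protein subunits that cuts cell proteins into peptides. After interferon exposure cells exchange its 3 constitutive catalytic subunits, encoded by Psmb5, Psmb6 and Psmb7, for the inducible subunits encoded by Psmb8, Psmb9 and Psmb10, and the result is called the immunoproteasome. Psme1 and Psme2 encode the alpha and beta chains of the activator ring PA28, which caps the barrel. Tap1 and Tap2 form the transporter that pumps peptides into the endoplasmic reticulum (ER), where tapasin, encoded by Tapbp, holds empty class I molecules beside it. B2m encodes beta-2 microglobulin, the light chain of class I molecules, and H2-K1 encodes a classical heavy chain.

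Resistant tumour CAFs had higher RNA levels of immunoproteasome catalytic subunits and of the peptide transporter than normal tumour CAFs. Of the 10 genes, 7 rose in resistant tumour CAFs (Psmb8, Psmb9, Psmb10, Tap1, Tap2, Tapbp and H2-K1), none fell, and 3 did not pass the test (Psme1, Psme2 and B2m), with edgeR's quasi-likelihood test and a Benjamini-Hochberg adjusted p under 0.05 over all genes. Over all genes tested, 15.5% were called higher and 13.9% lower, 29.4% in either direction. The log2 fold changes of the 10 ran from 0.49 to 4.47 with a median of 1.49, beside a median of 0 over all genes tested, of which 49.8% had a value above 0. With either normal replicate left out, the count was 5 (Psmb8, Psmb9, Tap1, Tap2 and Tapbp). Without resistant replicate 1 it was 10. Both resistant libraries lay above both normal libraries for all 10 genes, in CPM (reads scaled to a common library size); 31.9% of all genes tested had that order and 32.9% the opposite one.

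**Figure D1:**
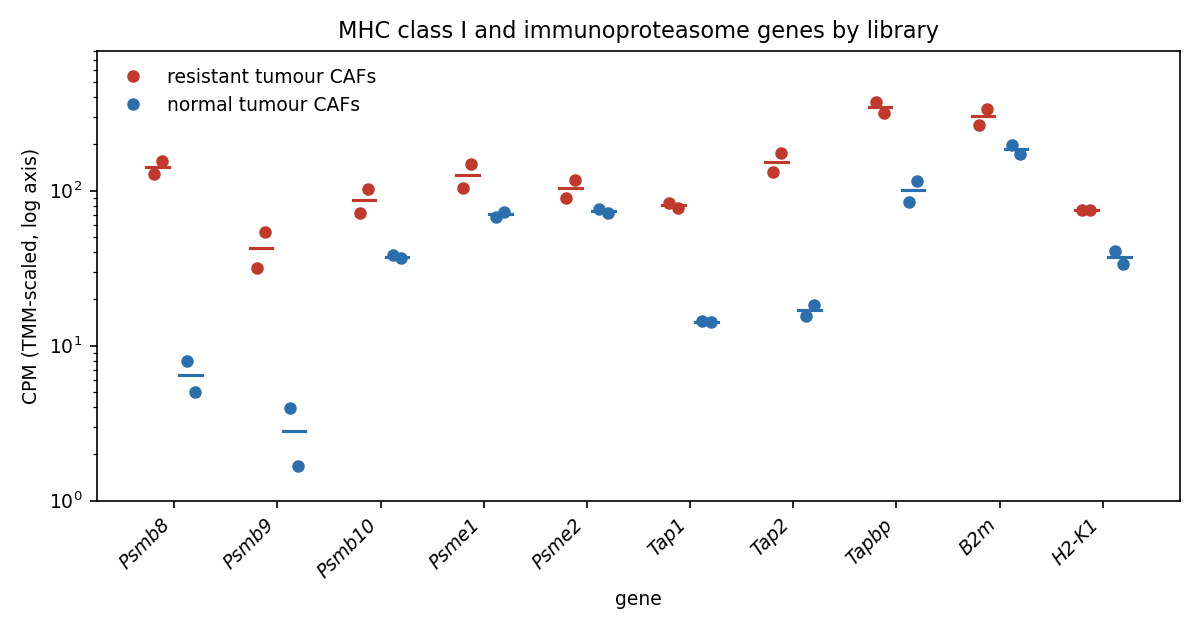
Each point is 1 library and each short line the mean of a group, in CPM on a log axis, with resistant tumour CAFs left of normal tumour CAFs for each gene. The gap between groups is widest for Psmb8 and Psmb9, whereas the points of Psme2 lie between 72.1 and 117 CPM in all 4 libraries.

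Library totals were 2845237 and 2785936 reads in resistant and 3948066 and 5558541 reads in normal replicates 1 and 2. Where a gene had no read, counting error alone leaves room for 3 reads, which is 0.503 to 1.14 CPM depending on the library. The fibroblast label was checked against 10 marker genes. In the resistant libraries all 10 had reads, with a summed level of 7734 and 7189 CPM, against 3083 and 2535 CPM in the normal libraries, and all 9 that were tested were called higher. The normal libraries held reads of several of them. Col1a1, a collagen gene, had 4439 and 4640 reads in resistant and 4764 and 5733 reads in normal libraries, Pdgfrb, a growth factor receptor of fibroblasts and pericytes, had 2590 and 2250 against 1067 and 950, and Thy1 had 759 and 582 against 294 and 388. Other markers were sparse or missing in the normal libraries. Dcn, the gene of the proteoglycan decorin, had 243 and 346 reads in resistant and 3 and 1 reads in normal libraries, and Fap had 21 and 27 against 5 and 5. Lum, which had too few reads to be tested, had 4 and 12 reads in resistant and no read in normal libraries. Markers of Schwann cells and neural crest moved the other way, with sums of 8.72 and 8.41 CPM in resistant and 1245 and 1103 CPM in normal libraries. Of those 10 genes, 6 were tested and all 6 were lower in resistant tumour CAFs, Sox10 among them, with 2 and 1 reads in resistant and 745 and 821 reads in normal libraries. The normal libraries thus held both collagen, Pdgfrb and Thy1 reads and reads of this other marker list, with few or none of Dcn, Fap and Lum, and normal tumour CAFs below is the name the labels give them. The part of this difference in cell markers in the results below was not tested, and in bulk RNA fewer cells of a type and less RNA per cell cannot be told apart. Leukocytes are known for high levels of the immunoproteasome. Ptprc, the pan-leukocyte gene, had no read in any library, nor had Cd3e, Cd3g, Ms4a1, Nkg7, Emr1 or Tyrobp, and 12 of 20 listed leukocyte markers had any read. Their summed level was 23.5 and 30.0 CPM in resistant and 33.1 and 51.0 CPM in normal libraries, but Laptm5 alone gave most of the normal sum, with 2 and 1 reads in resistant and 92 and 242 reads in normal libraries. Without Laptm5 the sum was 22.8 and 29.6 CPM in resistant and 10.4 and 10.4 CPM in normal libraries, and Lyz2, a lysozyme of myeloid cells, was called higher in resistant tumour CAFs (20 and 21 reads, against 2 and 7). Endothelial markers summed to 3.03 and 1.46 CPM in resistant and 5.93 and 2.85 CPM in normal libraries. Of 8 epithelial markers, Epcam, Cdh1, Cldn4 and Krt5 had no read, and Krt19 supplied every epithelial read in the resistant libraries (120 and 174, against 26 and 38 reads in the normal libraries). The part of these leukocyte and epithelial reads in the results was not tested either.

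Psmb8, also known as LMP7, encodes the inducible counterpart of Psmb5 and had the largest fold change of the 10 genes. It had 339 and 426 reads in the resistant libraries, or 129 and 156 CPM, against 32 and 30 reads in the normal libraries, or 7.90 and 5.03 CPM. The lower resistant library stood far above the higher normal one. The log2 fold change was 4.47 ± 0.41 (standard error, SE; adjusted p = 1.34e-05, edgeR). Psmb9, or LMP2, is the counterpart of Psmb6. It had 83 and 147 reads in resistant libraries, or 31.5 and 53.8 CPM, against 16 and 10 reads in normal libraries, or 3.95 and 1.68 CPM. Replicates of either group differed more for this gene than for Psmb8, but the groups did not overlap, and the log2 fold change was 3.96 ± 0.55 (adjusted p = 1.95e-04). Psmb9 passed the filter on low counts only through the resistant libraries, whereas the other 9 genes passed it in the normal libraries as well. Psmb10, or MECL-1, is the counterpart of Psmb7. It stood at 71.3 and 102 CPM in resistant libraries and at 38.5 and 36.6 CPM in normal libraries. Its log2 fold change of 1.21 ± 0.36 passed the test (adjusted p = 0.0235), but not without normal replicate 1 (adjusted p = 0.281) or without normal replicate 2 (adjusted p = 0.347).

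None of the 3 constitutive catalytic subunits passed the test. Psmb5 had 78.9 and 140.5 CPM in resistant and 185 and 141 CPM in normal libraries, a log2 fold change of -0.57 ± 0.33 (adjusted p = 0.229), although it was called lower without resistant replicate 2 (-1.04, adjusted p = 0.0235). The mean of Psmb6 was 174 ± 32.4 CPM in the resistant and 154 ± 19.5 CPM in the normal libraries (mean ± SD, n = 2 each), and Psmb7 averaged 146 ± 61.1 and 137 ± 5.82 CPM in the same order. The groups overlapped for Psmb6 and Psmb7, and for Psmb5 the higher resistant library lay just under the lower normal one. The read ratio of an inducible subunit over its constitutive counterpart within 1 library needs no scaling between libraries; its level depends on the lengths of both genes, so only its difference between groups is read. The log2 ratio of Psmb8 over Psmb5 was 0.70 and 0.15 in the resistant and -4.55 and -4.81 in normal libraries, a difference of 5.11. For Psmb9 over Psmb6 it was -2.27 and -1.87 in the resistant and -5.41 and -6.39 in normal libraries, a difference of 3.83. For Psmb10 over Psmb7 it was -0.53 and -0.89 in the resistant and -1.87 and -1.86 in normal libraries, a difference of 1.15. In each pair both resistant libraries lay above both normal libraries. The exact 2-sided permutation test over 4 libraries gave p = 0.333 for each, which is the smallest p that 2 against 2 allows, so this test cannot pass the threshold.

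**Figure D2:**
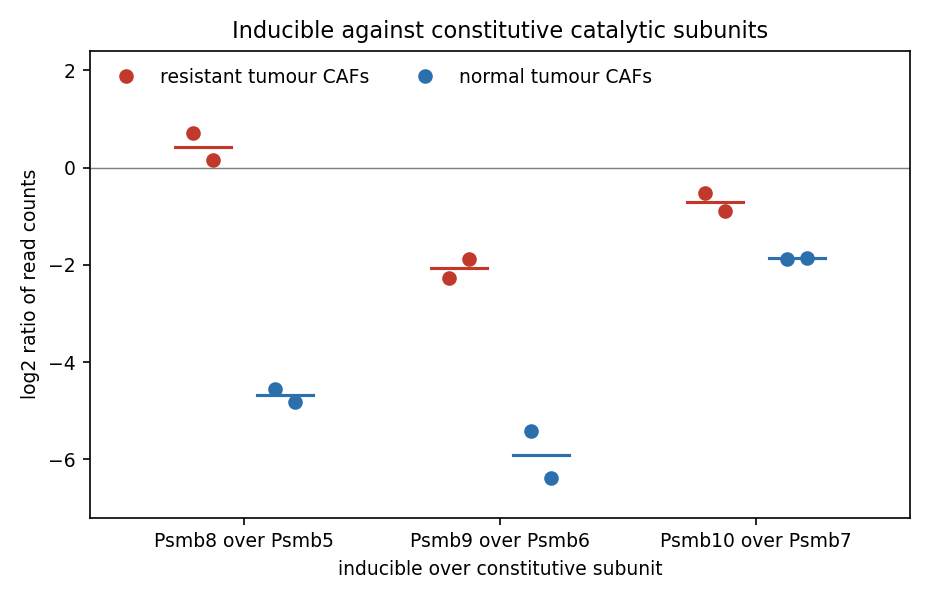
Points are libraries and short lines group means of the log2 ratio of read counts, inducible over constitutive subunit. Resistant tumour CAFs lie above normal tumour CAFs in all 3 pairs, by 5.11, 3.83 and 1.15 on the log2 scale.

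Psmb9 and Tap1 are read away from each other from a stretch that both promoters share. In RefSeq (GRCm38.p6), 225 bases lie between their annotated starts, and their promoter windows, each 250 bases before to 50 bases after a start, share 275 bases. The genes Psmb9, Tap1, Psmb8 and Tap2 follow each other on chromosome 17 with no other protein-coding gene between them, and all 4 were called higher. The shared stretch is shown as the Tap1 window (chr17:34187306-34187605, plus strand), followed by that of Psmb8 (chr17:34197945-34198244, plus strand), because these neighbours include the genes with the largest fold changes. Capitals mark matches to 4 searched motifs, on both strands: GAAA followed after any 2 bases by GAAA (interferon-stimulated response element, ISRE), TTCNNNGAA (gamma-activated site, GAS), GGG followed after any 2 bases by TTCC, and the same with TTTCC at its end (2 lengths of a kB site). No matches overlapped in the windows of the 10 genes.
Tap1: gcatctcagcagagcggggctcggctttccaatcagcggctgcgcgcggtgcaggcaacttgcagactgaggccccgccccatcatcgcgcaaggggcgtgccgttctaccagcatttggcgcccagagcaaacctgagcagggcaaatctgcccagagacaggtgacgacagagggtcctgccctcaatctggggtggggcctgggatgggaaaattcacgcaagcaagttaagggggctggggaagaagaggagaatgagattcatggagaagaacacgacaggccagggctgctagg
Psmb8: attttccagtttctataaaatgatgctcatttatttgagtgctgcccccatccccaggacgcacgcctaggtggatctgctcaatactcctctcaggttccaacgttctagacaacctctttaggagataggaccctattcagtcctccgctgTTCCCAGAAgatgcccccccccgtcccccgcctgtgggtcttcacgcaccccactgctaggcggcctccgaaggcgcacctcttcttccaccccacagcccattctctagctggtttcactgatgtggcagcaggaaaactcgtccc
The Tap1 window held none of the 4 motifs, nor did that of Psmb9, and the Psmb8 window held 1 GAS match, TTCCCAGAA, at 97 to 89 bases before the start. Of all 32851 promoter windows in the table, 8.3% held the GAS letters, 3.44% the ISRE letters, 5.82% the shorter and 1.63% the longer kB letters, and 17.4% held any of the 4. A match is a run of letters, not evidence of binding, and a window without one says nothing about the factor.

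Tap1, 1 chain of the transporter, had 221 and 211 reads in resistant libraries, or 83.8 and 77.2 CPM, against 58 and 85 reads in normal libraries, or 14.3 and 14.3 CPM. Replicates lay close together in both groups and the log2 fold change was 2.49 ± 0.38 (adjusted p = 3.88e-04). Tap2, its partner chain, had 132 and 176 CPM in resistant and 15.6 and 18.3 CPM in normal libraries, a log2 fold change of 3.18 ± 0.36 (adjusted p = 4.54e-05). Tapbp, tapasin, had 371 and 319 CPM in resistant and 85.0 and 116 CPM in normal libraries, a log2 fold change of 1.78 ± 0.27 (adjusted p = 3.48e-04). These 3 genes and both Psmb8 and Psmb9 passed the test under all 13 alternatives. In the annotation 212 exonic bases are shared by Psmb9 and Tap1 on opposite strands, and 149 by Tapbp and Zbtb22 on 1 strand. Opposite-strand annotations without a row in the count table cover 24.9% of the exonic bases of Tapbp and 14.7% of those of Psmb8. For Tap2, 1 such annotation covers 14.1% and another 4.36%. Strand use in the counting is not given in the sources used here, so reads of such partners cannot be told apart.

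The genes beside the block of Psmb9, Tap1, Psmb8 and Tap2, picked as the 2 protein-coding neighbours on each side after the data were seen, were class II genes almost without reads. H2-DMb1 and H2-DMb2, which encode class II chaperone chains, on the side of Psmb9, had at most 2 reads in any library. On the side of Tap2, H2-Ob had no read and H2-Ab1, a class II beta chain gene, had at most 1. For the 10 genes together there were 25 such neighbours, of which 14 were tested. Of these, 2 were higher and 3 lower, beside 15.5% and 13.9% of all genes tested. The higher ones were Emc9 (log2 fold change 1.49 ± 0.49), which lies between Psme1 and Psme2, and Irf9 (2.50 ± 0.34), an interferon signalling factor close to Psme2. The lower ones were Ring1 (-3.13 ± 0.53) and H2-Ke6 (-2.45 ± 0.51), beside H2-K1, and Rgl2 (-1.36 ± 0.40), beside Tapbp.

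Neither chain of PA28 passed the test. Psme1 had 104 and 149 CPM in resistant and 67.7 and 73.1 CPM in normal libraries, a log2 fold change of 0.84 ± 0.32 (adjusted p = 0.0679). Psme2 had 89.9 and 117 CPM in resistant and 75.8 and 72.1 CPM in normal libraries, a log2 fold change of 0.49 ± 0.32 (adjusted p = 0.292). With resistant replicate 1 left out both passed (adjusted p = 0.00721 and 0.0469). Psme1 passed in 2 of the 13 alternatives and Psme2 in 1. Both other activators measured lay lower in both resistant libraries. Psme4, which encodes PA200, had 67.9 and 53.0 CPM in resistant and 156 and 90.3 CPM in normal libraries and was called lower (-1.02 ± 0.36, adjusted p = 0.0494), but the call was lost in 6 of 13 alternatives: without either single normal replicate, without resistant replicate 2, with limma-voom, with at least 50 reads in 2 libraries and with abundance trend offsets. Psme3, the nuclear PA28 gamma, had 38.3 and 39.9 CPM in resistant and 73.6 and 71.3 CPM in normal libraries, which did not pass (-0.89 ± 0.35, adjusted p = 0.0775).

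The body of the proteasome showed no call in its core, where 15.5% of all genes tested were called higher and 13.9% lower. Of 11 other subunits of the 20S barrel none was called in either direction, with a median log2 fold change of 0.20; none had an unadjusted p under 0.05 and DESeq2 called none. Without resistant replicate 1 there were 3 called higher. Psma3 and Psma7, alpha ring subunits of highest mean CPM in this list, had log2 fold changes of 0.32 ± 0.27 and 0.20 ± 0.26. Of 22 subunits of the 19S regulator, which feeds substrates into the barrel, none rose and 1 fell, Psmd3 (-1.15 ± 0.38, adjusted p = 0.0377), with a median of -0.22. Without resistant replicate 2 there were 6 lower, Psmd3 not among them, and without either single normal replicate there were 0. Among 8 other activators, the inhibitor and assembly factors, Psme4 was the only call and the median was -0.36. Pomp, an assembly chaperone of the proteasome, had a log2 fold change of 0.01 ± 0.32.

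Of the chains of the class I molecule itself, the heavy chain H2-K1 passed the test and the light chain B2m did not; the difference between them was not tested. B2m had 265 and 338 CPM in resistant and 198 and 174 CPM in normal libraries, a log2 fold change of 0.70 ± 0.25 that did not pass (adjusted p = 0.0549). Over the 13 alternatives its log2 fold change lay between 0.47 and 0.87, and 4 alternatives passed. H2-K1 had 74.7 and 74.6 CPM in resistant and 40.7 and 33.4 CPM in normal libraries, a log2 fold change of 1.01 ± 0.36 (adjusted p = 0.0496). That call sat at the threshold and was lost in 6 of 13 alternatives, among them library totals as scaling (adjusted p = 0.0951), no low-count filter (adjusted p = 0.0760), and leaving out normal replicate 1 or 2 (adjusted p = 0.333 and 0.548). Class I promoters are known for kB and ISRE sites and for a conserved module read by RFX factors and Nlrc5. The windows of B2m (chr2:122147437-122147736, plus strand) and H2-K1 (the upstream of its 2 annotated starts, chr17:34000298-34000597, minus strand) are shown because they hold such letters, with matches in capitals; H2-K1 has another, overlapping window with the same match.
B2m: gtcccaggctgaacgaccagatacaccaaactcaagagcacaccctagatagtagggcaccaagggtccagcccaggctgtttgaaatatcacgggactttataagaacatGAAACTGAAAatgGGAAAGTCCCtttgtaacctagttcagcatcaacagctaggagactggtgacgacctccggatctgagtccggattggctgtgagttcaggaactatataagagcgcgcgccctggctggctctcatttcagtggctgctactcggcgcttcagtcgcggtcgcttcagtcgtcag
H2-K1: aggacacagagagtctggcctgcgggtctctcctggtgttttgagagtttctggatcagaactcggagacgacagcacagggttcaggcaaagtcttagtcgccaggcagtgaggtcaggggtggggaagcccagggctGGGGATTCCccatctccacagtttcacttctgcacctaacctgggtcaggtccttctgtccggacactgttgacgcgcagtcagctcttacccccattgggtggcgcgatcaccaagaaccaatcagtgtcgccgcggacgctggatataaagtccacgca
B2m held the ISRE match GAAACTGAAA and, on the minus strand, the longer kB letters as GGAAAGTCCC. H2-K1 held GGGGATTCC. Psme1 held an ISRE match on the minus strand, 10 to 19 bases into the transcript. Windows were found for 9 of the 10 genes, and 4 of the 9 held any of the motifs. B2m and Psme1, the 2 genes with an ISRE match, were among the 3 genes that did not pass the test. Both were nonetheless higher in both resistant libraries than in either normal library. A link between motifs and fold changes was not tested.

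Other class I heavy chains and other partners of B2m rose in part. Of 24 listed heavy chain genes, 10 were tested, 5 rose and none fell, beside 15.5% and 13.9% of all genes tested. The median log2 fold change was 1.38. Among the 5, H2-T24 had 9 and 23 reads in the normal libraries and passed the filter on low counts only through the resistant libraries. H2-M3, which presents formylated peptides, had 61.1 and 70.6 CPM in resistant and 11.6 and 11.7 CPM in normal libraries, a log2 fold change of 2.49 ± 0.40 (adjusted p = 5.07e-04). H2-T23, which encodes Qa-1, a ligand of natural killer cell receptors, rose by 2.47 ± 0.45 (adjusted p = 0.00118). H2-D1, the other classical heavy chain, had 78.5 and 108 CPM in resistant and 26.4 and 30.7 CPM in normal libraries and rose by 1.71 ± 0.37 (adjusted p = 0.00368). The calls fell to 2 without normal replicate 1 and to 3 without normal replicate 2. H2-D1 was lost in both of these fits, at an adjusted p of up to 0.135, whereas H2-M3 and H2-T23 passed in all 13 alternatives. H2-Q6, H2-Q7, H2-Q8 and H2-Q9 had no read in any library. Heavy chain genes are near copies of each other and vary between mouse strains, and neither the strain nor the handling of reads that match several genes is given in the sources used here, so values of single heavy chain genes, H2-K1 included, are uncertain. Among 4 tested other partners of B2m, 3 rose, with 2 left without either single normal replicate. Fcgrt, the neonatal Fc receptor that recycles antibodies, had 580 and 641 reads in resistant and 151 and 212 reads in normal libraries, or 227 ± 10.3 and 36.4 ± 1.22 CPM in that order (mean ± SD, n = 2 each), and rose by 2.64 ± 0.30. Mr1, which presents vitamin B metabolites, rose by 2.88 ± 0.44. Hfe, a regulator of iron uptake, rose by 2.00 ± 0.55 (adjusted p = 0.0158, edgeR). It had 9 and 12 reads in the normal libraries and passed the filter on low counts only through the resistant libraries. The Hfe call was lost with DESeq2 and in the fits without resistant replicate 2 or without either normal replicate.

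Folding factors of the ER were mostly not called. Of 7 listed, 2 rose and none fell, with a median of -0.01, beside 15.5% higher and 13.9% lower over all genes tested. Canx (calnexin) and Calr (calreticulin), chaperones of newly made heavy chains, had log2 fold changes of -0.01 ± 0.22 and -0.03 ± 0.23; both were named outside the rule for named genes. Tapbpl, the tapasin relative that edits bound peptides, rose by 1.12 ± 0.40 (adjusted p just under the threshold) and Ganab, a glucosidase subunit, by 0.86 ± 0.27 (adjusted p = 0.0281). Neither passed without normal replicate 1 or 2. The Tapbpl call was also lost without resistant replicate 2, with relative log expression factors, with library totals and with no low-count filter, and the Ganab call without resistant replicate 1 and with abundance trend offsets. Of 8 peptidases that trim peptides, 1 rose, beside 15.5% of all genes tested. It was Lnpep, a trimming enzyme of endosomes (1.47 ± 0.34, adjusted p = 0.00570, edgeR), a call lost with normal replicate 2 left out. Erap1, the trimming enzyme of the ER and named outside the rule, had 0.54 ± 0.31 (adjusted p = 0.227).

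Among 13 transcription factors of class I genes, 2 rose and 1 fell, beside 15.5% and 13.9% of all genes tested. The median log2 fold change was 0.03. Irf1, an interferon-induced factor known to act on Psmb9 and Tap1, had 396 and 491 reads in resistant and 211 and 369 reads in normal libraries, or 165 ± 20.8 and 57.0 ± 6.93 CPM in that order (mean ± SD, n = 2 each), and rose by 1.53 ± 0.31 (adjusted p = 0.00237). The Irf1 call was lost with either normal replicate left out, at an adjusted p of up to 0.113. Rfxap, a subunit of the RFX complex, fell by 1.77 on the log2 scale (SE 0.51, adjusted p = 0.0194), which did not pass without resistant replicate 1 or normal replicate 1. Nlrc5, the class I transactivator, was sparse, with 37 and 21 reads in resistant and 24 and 6 reads in normal libraries, and did not pass (1.71 ± 0.70, adjusted p = 0.0869), though it passed in 5 of the 12 alternatives that tested it. Of 7 interferon receptors and kinases, 3 rose and none fell, with a median of 0.92. Jak1 rose by 1.06 ± 0.22 (adjusted p = 0.00308, edgeR) and Ifnar2 by 1.17 ± 0.30 (adjusted p = 0.0113). Ifngr2 rose by 0.92 ± 0.32 (adjusted p = 0.0491, edgeR), a call at the threshold. It was lost with library totals, with abundance trend offsets, without resistant replicate 2 and without either normal replicate. That count was 1 without normal replicate 1 and 0 without normal replicate 2.

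The class II pathway, the counterpart that professional antigen-presenting cells use, was almost silent. Of 11 genes, 1 was tested, H2-DMa, which had 77 and 96 reads in resistant and 37 and 73 reads in normal libraries and rose by 1.58 ± 0.43 (adjusted p = 0.0139), though not without either single normal replicate. Cd74, the invariant chain gene, had 1 and 0 reads in resistant and 0 and 2 reads in normal libraries. Ciita, the class II transactivator, had 4 and 7 reads in resistant and 1 and 2 reads in normal libraries. H2-Aa, H2-Eb2, H2-Oa and H2-Ob had no read.

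**Figure D3:**
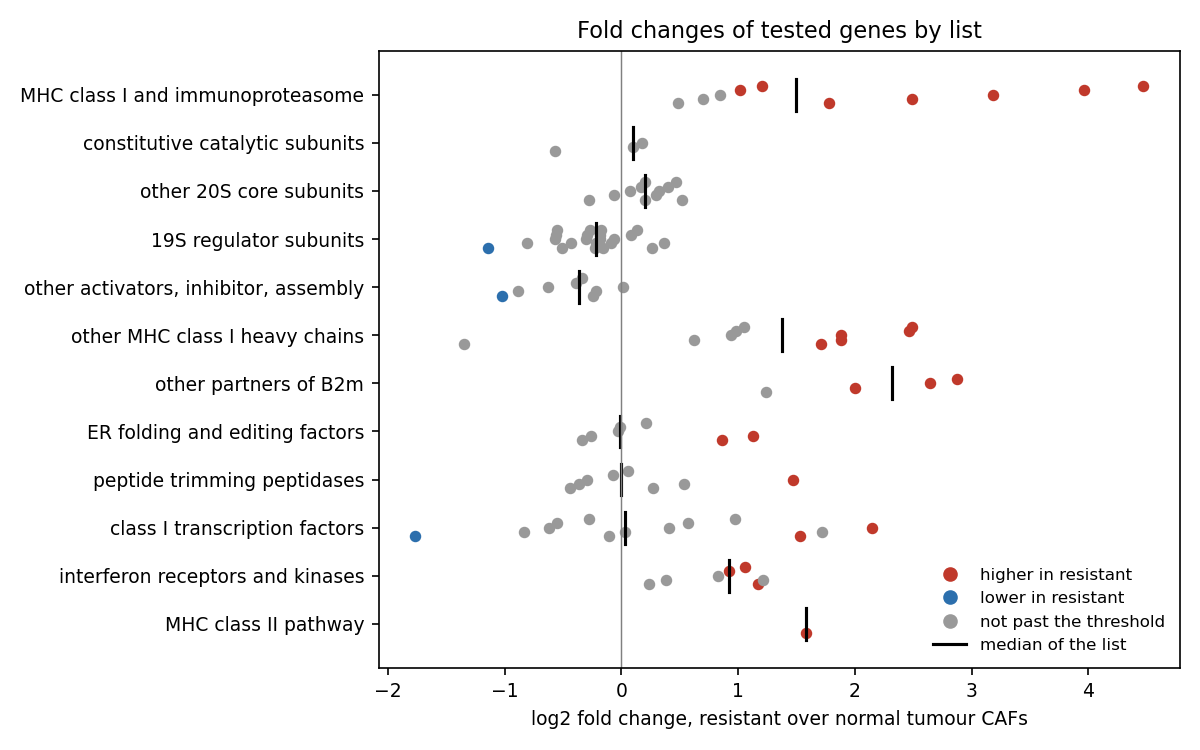
Each point is a tested gene, placed by its log2 fold change (resistant over normal tumour CAFs) within its list; colour marks the edgeR call and the black line the median of the list. The medians are 1.49 for the 10 class I and immunoproteasome genes, 0.10 for the constitutive catalytic subunits and 0.20 for the other 20S subunits.

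Levels of different genes were compared as CPM per kilobase of exon. B2m was the most abundant of the 10 in both groups, with 308 and 393 in resistant and 230 and 202 CPM per kilobase in normal libraries. Psmb9 was the least abundant in both, with 8.60 and 14.7 in resistant and 1.08 and 0.458 CPM per kilobase in normal libraries. In resistant tumour CAFs the order of the mean levels was B2m, Tapbp, Psme2, Psme1, Psmb10, Psmb8, Tap2, H2-K1, Tap1 and Psmb9. From Psme2 to Tap2 neighbours in that order overlapped between libraries, at means of 58.8 and 40.7 CPM per kilobase at the ends, as did Tap1 and Psmb9. In normal tumour CAFs the order was B2m, Psme2, Psme1, Tapbp, Psmb10, H2-K1, Tap2, Tap1, Psmb8 and Psmb9, and Psme1 and Tapbp were the 2 neighbours that overlapped. Psmb8 thus had a mean of 42.1 in resistant and 1.91 CPM per kilobase in normal tumour CAFs, beside 122 and 181 CPM per kilobase for Psmb5. Exonic lengths join all annotated isoforms, so a gene with long rare isoforms appears lower.

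The authors' deposited table called 4 of the 10 genes upregulated, Psmb8, Psmb9, Tap1 and Tap2, where 4.89% of its 15879 genes were called so and 3.61% downregulated. Its log2 fold changes for these were 4.45, 3.94, 2.46 and 3.15. Calls in the authors' deposited table went to log2 fold changes of 2 or more in size, with adjusted p-values of up to 0.0999 by the authors' own test. That limit is a larger number than the 0.05 used here, but the tests differ. The authors' test statistic was 0 for H2-K1 at a log2 fold change of 0.98, and 0.47 for Psmb10 at 1.18. Their test thus asked for more than a change from 0, unlike the edgeR test, so adjusted p-values of the tests cannot be compared directly. The authors' log2 fold changes were 1.75 for Tapbp, 1.18 for Psmb10 and 0.98 for H2-K1, none of them called. Their adjusted p-values in that table also lay above 0.0999, with Tapbp at 0.196.

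Over the 13 alternatives no gene of the 10 changed direction. Psmb8 ranged from 4.14 to 4.76, Psmb9 from 3.40 to 4.60, Tap1 from 2.35 to 2.63 and Tap2 from 2.96 to 3.37 on the log2 scale. The 5 genes outside the list whose profile over the 4 libraries was nearest to the median profile of the 10, by Euclidean distance of centred log2 CPM with mean levels from 10 CPM upward, were Nicn1, Cnrip1, Maged2, Fam132a and Zfp951, at distances of 0.058 to 0.101, beside a median distance of 1.71 over such genes. With 4 libraries in 2 groups this likeness mostly describes the size of the group difference. Maged2 stood at 452 ± 18.2 CPM in the resistant and 151 ± 8.12 CPM in the normal libraries (mean ± SD, n = 2 each).

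**Figure D4:**
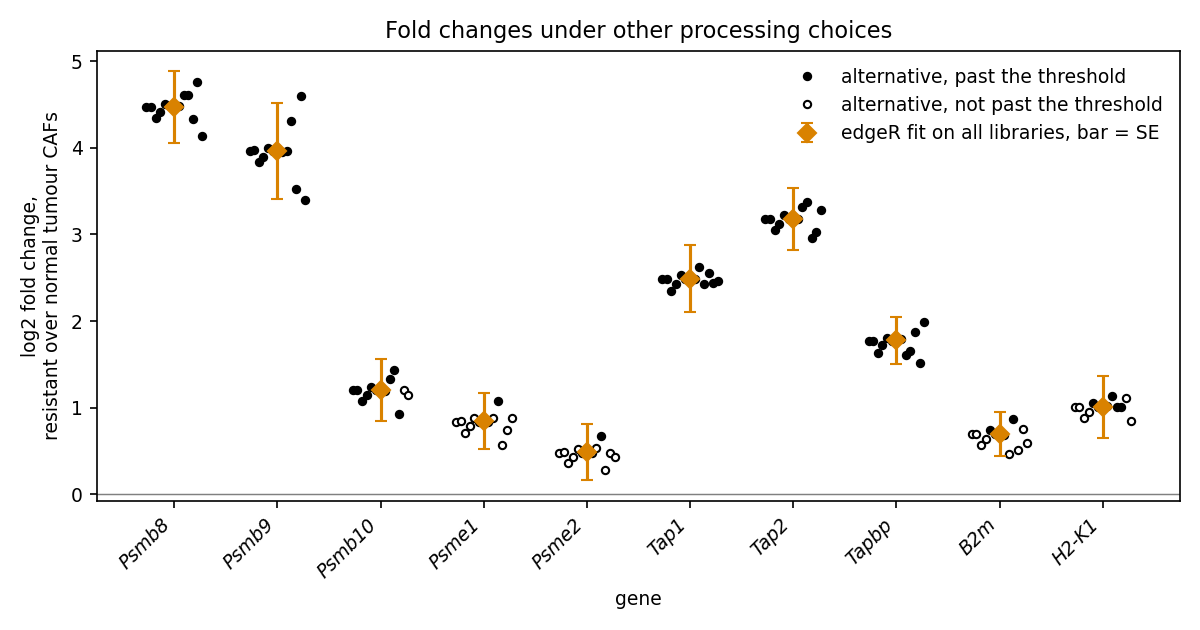
Orange diamonds give the log2 fold change (resistant over normal tumour CAFs) of the edgeR fit on all 4 libraries with its SE, and black points the 13 alternatives, filled where the adjusted p was under 0.05. Psmb8, Psmb9, Tap1, Tap2 and Tapbp are filled throughout, and all points of the 10 genes lie above 0.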

How the data were processed

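Whole-number read counts per gene symbol were used as deposited. The submitters' processing notes name TopHat2 (2.1.1) and HTSeq (0.7.2), besides Picard (1.62), DESeq2, bcl2fastq (2) and genome build mm9. Settings and gene annotation were not given there. Both a TruSeq kit and SMART-seq2 appear in the labels' protocols with no word on which library had which, so preparation and group cannot be told apart. The authors' deposited tables also hold a normalized signal (counts over a size factor), log2 fold changes, a score (the test statistic), p-values and adjusted p-values. Only the fold changes, test statistics, calls and adjusted p-values were used here.

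The test was that of edgeR 4.0.16 under R 4.3.3 (filterByExpr with minimum count 10, which is 2.94 CPM, TMM scaling, quasi-likelihood F test, group as the only term). Benjamini-Hochberg adjustment ran over all 12001 genes tested, with a threshold of 0.05. Fold changes are resistant over normal, and CPM use TMM-scaled totals. Alternatives used DESeq2 1.42.0, limma 3.58.1 (voom), other scalings, filters and offsets, a replicate block, and fits with 1 library left out. The procedure was also run on simulated counts, with far fewer changed genes than were called here. That run was a check of the procedure and says nothing on single calls. Promoters are from RefSeq (GRCm38.p6), and exonic lengths from a GRCm38 annotation served only as lengths and overlaps.

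The 10 genes and the other lists were chosen with earlier results of these data known. The rule for named genes took the 10, Psmb5, Psmb6 and Psmb7, up to 3 called genes of smallest adjusted p in each other pathway list, or, with no call, the 2 with the highest mean CPM, and the 5 nearest profiles; genes outside it were named after their values were seen. Some genes of the other lists count in the totals of their lists and are not reported here by name.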

Additional observations from a re-analysis of the deposited data

How the results depend on the processing

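Of the 10 class I and immunoproteasome genes, 5 to 10 were called higher with 1 library left out, 9 with the replicate number as a block, 8 with limma-voom or with at least 50 reads in 2 libraries, 7 with DESeq2 or with abundance trend offsets, and 6 with relative log expression factors, upper-quartile factors, library totals or no low-count filter. None was called lower in any of these. Library totals shifted the median over all genes by -0.14 on the log2 scale, and the other settings by at most 0.03 in size. Over all genes, 1857 were higher and 1668 lower. With 1 library left out, 1057 to 2104 were higher and 925 to 2357 lower, and the counts were lowest without normal replicate 2 (1057 and 925) and without normal replicate 1 (1182 and 1066). With 1 library left out, the library that remains alone in its group takes its spread from the other group and from other genes. With the block 2257 genes were higher and 2267 lower. Psme1 and B2m were the 2 of the 10 genes that passed with the block and not without it (adjusted p = 0.0387 and 0.0301). The samples share only a replicate number, since nothing in the labels pairs them and with 2 pairs the check (deviations from the group means correlated at 0.216) does not decide it. The log2 difference between groups in the subunit ratios ranged, with 1 library left out, from 4.83 to 5.38 for Psmb8 over Psmb5, 3.34 to 4.32 for Psmb9 over Psmb6 and 0.97 to 1.33 for Psmb10 over Psmb7; the block left them at 5.11, 3.83 and 1.15. Normal libraries held 10 to 32 reads of Psmb8 and Psmb9, so their fold changes rest on few reads in that group.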
